A study of Mus musculus with 10 samples.

Results

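The cytosolic ribosome is built from a large, or 60S, and a small, or 40S, subunit, and the genes of its proteins were examined across 10 arrays that are all labelled as mouse mammary tumour. The members were all probe sets whose single annotated symbol began with Rpl or Rps and a digit, or was Rplp0, Rplp1, Rplp2 or Rpsa. Kinases of the Rps6k family and pseudogenes were left out. The rule found 49 probe sets for 35 genes, of 12422 probe sets that were not controls and 8251 genes with a probe set of 1 symbol. Of the 35 genes, counted by symbol alone, 17 are named as 60S proteins (Rpl and Rplp) and 18 as 40S proteins (Rps and Rpsa), paralogues included. A single probe set measured 25 genes, and 10 genes had several. A further 39 probe sets carried a ribosomal protein symbol among several symbols and are no members, so many known ribosomal protein genes are not described here.

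All tumours came from adult females aged 90 days in a study of MMTV-PyMT mice, whose transgene puts polyomavirus middle T, an oncogene, under a mammary tumour virus promoter active in mammary epithelium. Strain names stand in the titles of 9 arrays: 1 array, lettered B, is named FVBn, and arrays A and B exist for each of ILn, LP, MOLF and NZB. Grouping used these titles, although the separate strain label reads FVB/Nj throughout, on the array without a strain name too. That array was kept out of all comparisons. The word mix stands in the 9 titles without a statement of what was mixed, and whether arrays A and B of a strain are separate animals is not said. The tests therefore see the spread between arrays, which may be technical.

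Ribosomal protein messages are among the most abundant of a growing cell, and each protein is needed in about equal amounts. Cells hold them in step mainly through translation: many of these messages start with a run of pyrimidines, the 5′ terminal oligopyrimidine motif, through which mTOR signalling sets how fast they are translated. Myc raises their transcription and that of the factors that assemble ribosomes. Some members also have paralogues with a narrower range of tissues, and many have processed pseudogenes, whose sequence resembles the message. Whether the probes could bind such copies was not tested here.

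The sequence at the annotated start is shown for 7 members: the 1 member past the test (Rpl13a), the member with the longest pyrimidine run (Rpl7a), 3 of the members whose arrays of a strain lay beyond the others (Rps27, Rps18, Rps3), and dim probe sets of a core gene and of a paralogue (Rpl38, Rpl39l). They are examples, and their runs do not stand for those of all members. Of others separated in this way and not shown, Rps28, Rpl22, Rps19 and Rps3a1 had runs of 4, 4, 4 and 2 bases, and Rpl10a and Rps24 of 7 and 9. Each window holds the 20 bases before the start and the 20 bases from it on, read on the gene's strand from RefSeq, GRCm38.p6. Capitals mark the longest run of C and T that touches the 10 bases on either side of the start.
Rpl13a, chr7:45128726-45128765, minus strand: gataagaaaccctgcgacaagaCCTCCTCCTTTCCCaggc
Rpl7a, chr2:26910787-26910826, plus strand: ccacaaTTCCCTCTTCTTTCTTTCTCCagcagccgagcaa
Rps27, chr3:90213629-90213668, minus strand: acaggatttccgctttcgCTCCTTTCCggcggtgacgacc
Rps18, chr17:33955646-33955685, minus strand: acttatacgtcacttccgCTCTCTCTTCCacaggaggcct
Rps3, chr7:99483690-99483729, minus strand: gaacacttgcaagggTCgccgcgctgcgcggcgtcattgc
Rpl38, chr11:114668560-114668599, plus strand: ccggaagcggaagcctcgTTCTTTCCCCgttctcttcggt
Rpl39l, chr16:10170208-10170247, plus strand: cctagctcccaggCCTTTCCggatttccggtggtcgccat
RefSeq windows were matched for 28 of the 35 genes. A run of 6 or more pyrimidines was found in 12 of these 28 (42.9%), against 29.1% of 27025 promoters. The motif CTTTC, searched on the gene's strand of the 40 bases, stood in 6 of 28 members (21.4%) and in 5.38% of all promoters. The run was 14 bases long in Rpl13a and 21 in Rpl7a, and the longest in Rps3 that touches the 10 bases on either side of the start had 2. These matches describe letters near an annotated start and say nothing about where transcription began in these tumours.

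The arrays MOLF A and NZB B differed from the rest. Both lay above all 7 others in 19.7% of the 9899 tested probe sets and below all 7 in 16.9%. Their deposited intensities were also compressed at the top: the 95th percentile lay 2.87 and 2.88 log2 units above the median, against 3.46 to 3.61 on the other 7. Title dates put the 9 arrays in 3 batches: ILn A with NZB B (batch 2), LP A with MOLF A (batch 3), and FVBn B, ILn B, LP B, MOLF B and NZB A (batch 4). The 9 spike-in probe sets averaged 3.14 and 3.00 log2 units above the trimmed mean intensity on the batch 3 arrays and 0.73 to 1.37 on the other 7. Markers of mammary epithelium were well above the floor on the 9 arrays, with a mean log2 intensity of 9.72 to 9.98 over 15 of 15 genes. Markers of other tissues differed by strain name. The mean of 9 salivary gland markers was 10.31 to 10.74 in FVBn and ILn, 7.09 and 7.29 in MOLF, and 5.22 to 5.60 in LP and NZB. That of 15 skeletal muscle markers was 5.85 in FVBn, 6.35 and 6.36 in MOLF, 7.29 and 7.32 in ILn, and 8.55 to 9.0 in LP and NZB. In whole tissue, fewer cells of a type and less RNA per cell cannot be told apart.

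Values below are log2 of the quantile normalized intensity, with a floor at 4.75 that holds the dimmest 30% of values. A probe set's brightness depends on its probes, so brightness and rank are used to describe the measurement and not to compare amounts of message. The members fell into bright and dim probe sets, a split made after the values were seen. The 23 bright probe sets, for 21 genes, had means over the 9 arrays of 8.60 or more, and the 26 dim ones, for 19 genes, had means of 7.76 or less. For 5 genes both kinds were present, and 14 genes were measured by dim probe sets alone. The filter, a value above the floor in at least 2 of 9 arrays, passed 45 probe sets for 33 genes: all 23 bright and 22 dim ones.

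How much the bright ribosomal protein probe sets varied depended on the scaling. After quantile normalization their SD over the 9 arrays had a median of 0.14 (range 0.04 to 0.46), against 0.26 over the other 2626 tested probe sets with a mean of at least 8. With trimmed mean scaling the medians were 0.26 and 0.28, and with median centring 0.34 and 0.38. Between 15 and 17 of the 23 held 1 of the top 100 ranks on each array. Quantile normalization gives a rank the same value on every array and so removes a shift shared by all probe sets of these ranks. A shift of the members against other probe sets of like rank could still show. The part of this in the lower SD was not tested. Rpl41, the smallest protein of the 60S subunit, held the first or second rank throughout and was thereby nearly fixed (13.25 to 13.32). In quantile normalized values, the highest and lowest arrays were under 0.5 log2 units apart in 13 of 23 and over 1 apart in 3. The values of single members below are on that scale and show how a member differed from its neighbours in rank.

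**Figure D1:**
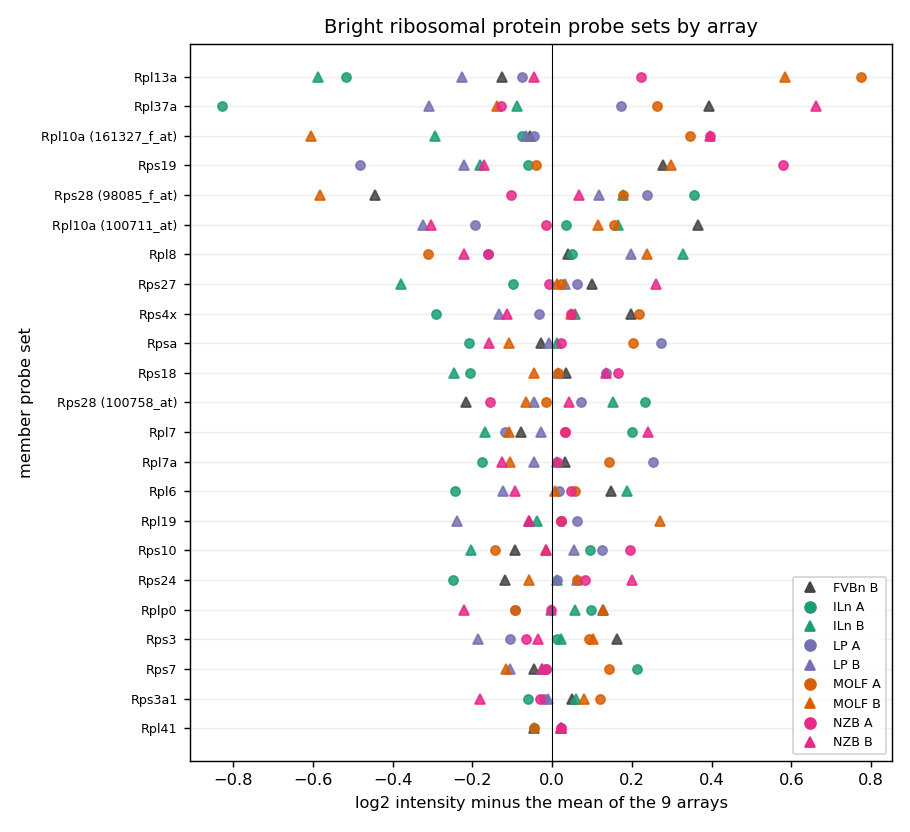
Deviation of each of the 23 bright ribosomal protein probe sets from its own mean over 9 arrays, in log2 units, with colour for the strain name and shape for the array letter. Members are ordered by SD, from 0.04 for Rpl41 to 0.46 for Rpl13a, and the 2 MOLF arrays lie rightmost for Rpl13a.

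In the 60S subunit, Rplp0, the scaffold of the ribosomal stalk that recruits translation factors, was steady. It measured 12.93 in FVBn, 12.90 and 12.86 in ILn, 12.71 and 12.80 in LP, 12.71 and 12.93 in MOLF, and 12.80 and 12.58 in NZB. Both ILn arrays were above those of LP and NZB, the MOLF arrays spanned the ILn and LP values, and the difference of MOLF from the others was 0.04 ± 0.122 (SE). Rpl6, Rpl7, Rpl7a, Rpl8 and Rpl19, core 60S proteins, kept their bright probe sets between 11.45 and 12.58 on all 9 arrays. Rpl37a, a small zinc-binding protein, ranged further, from 10.14 on ILn A to 11.63 on NZB B, with the arrays of ILn, LP and NZB 0.74, 0.48 and 0.79 apart, more than for any other bright member in those strains. The 4 pairs overlapped. Rpl10a, which sits at the L1 stalk, had 2 bright probe sets that disagreed. On the first, the FVBn array was highest at 11.68 and the LP arrays measured 11.12 and 10.99. On the other, both NZB arrays measured 10.81 and the lowest value was 9.81 on MOLF B.

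In the 40S subunit, Rpsa, also known as the laminin receptor, measured 10.71 to 11.19 on the 9 arrays with no strain set apart. Rps19, the first gene linked to Diamond-Blackfan anaemia, was 11.10 in FVBn, 10.76 and 10.64 in ILn, 10.34 and 10.60 in LP, 10.78 and 11.12 in MOLF, and 11.40 and 10.65 in NZB. Both LP arrays were the lowest of the 8 in pairs (by 0.04), while NZB A was the highest of all and NZB B among the lower arrays. Rps3, at the entry of the message channel, measured 12.24 and 12.25 in MOLF, 12.16 and 12.17 in ILn, 12.08 and 12.11 in NZB, and 12.04 and 11.96 in LP. The 4 pairs did not overlap, yet the step from MOLF to LP was only 0.24 ± 0.121 (SE; limma adjusted p = 0.859), and the FVBn array was above them all at 12.31. Rps18, at the head of the 40S subunit, was lowest in ILn at 12.30 and 12.26, against 12.46 to 12.67 on the other 7 arrays. The ILn difference was -0.29 ± 0.103 (SE) and did not pass the test (limma adjusted p = 0.567). Rps27, a zinc finger protein of the 40S subunit, was likewise lowest on the ILn arrays at 8.50 and 8.22, with the others at 8.59 to 8.86 (limma adjusted p = 0.78).

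Rpl13a had the largest SD of the bright members (0.46; by range Rpl37a was first, at 1.49 against 1.36) and was the 1 member past the test. This 60S protein is also known as a part of a complex that silences translation of inflammatory messages, and introns of its gene hold small nucleolar RNAs. Its single probe set measured 10.48 and 10.29 in MOLF, 9.93 and 9.66 in NZB, 9.63 and 9.48 in LP, 9.58 in FVBn, and 9.19 and 9.12 in ILn. Both MOLF arrays lay above the other 7 by at least 0.36, and both ILn arrays lay below the other 7 by at least 0.29. NZB, LP and FVBn stood between and were not separated beyond their spread: NZB averaged 9.79 ± 0.19 (SD, n = 2) and LP 9.56 ± 0.11 (SD, n = 2). MOLF exceeded the mean of ILn, LP and NZB by 0.88 ± 0.13 (SE), or 1.85-fold (limma adjusted p = 0.0496). ILn differed from the mean of the other strains by -0.76 ± 0.13 (SE; limma adjusted p = 0.0909), and LP from MOLF by -0.83 ± 0.159 (limma adjusted p = 0.129). The moderated F test over ILn, LP, MOLF and NZB gave an adjusted p of 0.0645.

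The Rpl13a call lay at the edge of the threshold. It passed in 3 of 19 alternative analyses, with a difference of 0.68 to 0.98 and an adjusted p of 0.0356 to 0.998 over the 19. The separation from NZB depended on the scaling: with median centring MOLF A measured 9.88, below NZB A at 10.02, while MOLF B was highest at 10.52. With trimmed mean scaling the MOLF arrays (10.21 and 10.37) again lay above NZB A (9.95) and the rest. Within batch 4, where each strain name has 1 array, MOLF B exceeded the mean of ILn B, LP B and NZB A by 0.78, and within batch 3 MOLF A exceeded LP A by 0.84. In ILn the same values were -0.78 within batch 4 and, against NZB B, -0.48 within batch 2.

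A ratio within an array is free of a scale factor between arrays, but not of the narrower spread above the median seen on MOLF A and NZB B. In deposited log2 intensity, Rpl13a lay 1.96 and 1.81 units below the median of the other 22 bright members on MOLF A and MOLF B, written as differences of -1.96 and -1.81. The difference was -2.15 and -2.38 in NZB, -2.55 to -2.72 in LP, -2.54 in FVBn, and -2.72 and -3.01 in ILn. The 2 MOLF arrays thus had the highest Rpl13a relative to the other members, although MOLF A (-1.96) was close to NZB A (-2.15). Such a ratio cannot tell whether Rpl13a or the other members changed. On the array without a strain name Rpl13a measured 8.25 and the difference was -4.0. That array, although labelled as tumour, also had the lowest epithelial marker mean (8.36) and the highest muscle and adipocyte marker means (10.49 and 10.03). In MOLF the muscle means (6.36 and 6.35) were below those of ILn, LP and NZB, the strains it was tested against. Only the FVBn array was lower, at 5.85. The salivary means in MOLF lay between those of ILn and those of LP and NZB. The part of either tissue in the Rpl13a difference was not tested.

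**Figure D2:**
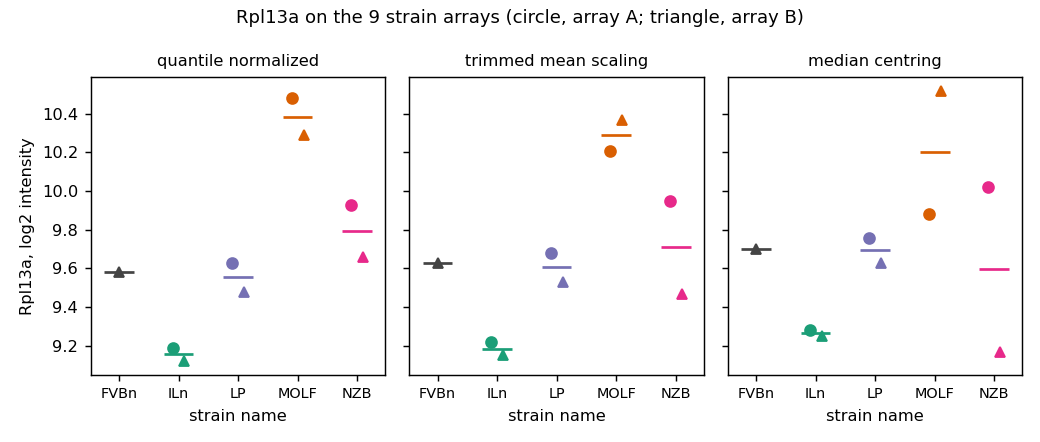
Rpl13a log2 intensity on the 9 strain arrays under quantile normalization, trimmed mean scaling and median centring; points are arrays and bars are strain means. MOLF lies above the other arrays in the first and second panels (10.48 and 10.29, then 10.21 and 10.37), while in the third MOLF A at 9.88 falls below NZB A at 10.02, and ILn is lowest except for NZB B at 9.17 in the third.

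Tests across the 9899 probe sets called few probe sets of any kind, and these counts are read against that background. For MOLF against the other strains, 1 of 45 members (Rpl13a) was called, against 0.414% of all tested in either direction and 0.131% called higher. No member was called in the other 7 comparisons with limma. There the background was 0.404% for ILn, 0.313% for LP, 0.101% for NZB, 0.313% for the strains against FVBn, 0.343% for ILn against NZB, 0.444% for LP against MOLF and 0.748% for the F test. At an unadjusted p under 0.05, limma gave 2 of 45 members in ILn (Rpl13a and Rps18; 4.44%, all tested 7.11%) and 1 in LP (Rpl10a; 2.22%, all tested 5.69%). It gave 1 in MOLF (Rpl13a; all tested 6.42%), 0 in NZB (all tested 8.4%) and 1 against FVBn (Rpl10a; all tested 3.41%). The counts were 2 in ILn against NZB (Rpl13a and Rps18; all tested 9.22%), 2 in LP against MOLF (Rpl13a and Rpl10a; all tested 6.27%) and 1 in the F test (Rpl13a; all tested 7.9%). The members' share was below that of all tested probe sets in each of the 8. These small groups limit what could be called.

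Median differences over the members were 0.11 or less in size in each strain against the others, and they moved with the scaling and with single arrays. The median was 0.11 in MOLF, with 29 of 45 probe sets above 0, against a median of 0.01 over all tested. It was -0.10 in ILn (14 of 45 above 0; all tested -0.02), -0.05 in LP (17 of 45; all tested -0.01) and 0.01 in NZB (23 of 45; all tested 0.00). The MOLF median was -0.01 without MOLF A and 0.05 without ILn A or without NZB A. With median centring the LP median was 0.21 and the NZB median -0.12, and with trimmed mean scaling the ILn median was -0.20 and the LP median 0.08. Over the 23 bright probe sets alone, quantile normalized, it was 0.04 in MOLF, -0.02 in ILn, -0.02 in LP and -0.01 in NZB. The 36 tested probe sets with a ribosomal protein symbol among several had a median of 0.10 in MOLF and -0.07 in ILn, and none was called.

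Some members separated a strain's arrays from the 6 arrays of the other paired strains without passing the test. Both MOLF arrays were above them in 4 of 45 members (8.89%; all tested 2.84%): Rpl13a, Rps3, Rps3a1 and Rps29. Except in Rpl13a the gap was 0.02 to 0.11 log2 units. Both ILn arrays were below in 3 (6.67%; all tested 3.77%), namely Rpl13a, Rps27 and Rps18, and above in 2 (4.44%; all tested 6.6%), namely Rps28 and Rpl22. Both LP arrays were below in 2 (4.44%; all tested 2.55%), Rps3 and Rps19, and both NZB arrays were above in 2 (4.44%; all tested 3.74%), Rpl10a and Rps24. LP was above in 0 members (all tested 4.47%), MOLF below in 0 (3.38%) and NZB below in 0 (4.24%). The names were taken after the values were seen, and apart from the Rpl13a call none of these differences passed the test.

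Whether the bright members moved together depended on how arrays were scaled. After quantile normalization, the correlation of a bright member with the median of the other bright members over 9 arrays had a median of 0.12, and 14 of 23 were above 0. With trimmed mean scaling the median correlation was 0.74, and with median centring 0.89 with 23 of 23 above 0. The points share arrays and scaling, so these are descriptions only. The other 2626 tested probe sets with a mean of at least 8, a set that reaches below the members' own means, set against the bright members' median, had median correlations of 0.00, 0.10 and 0.63 under the same scalings. Without MOLF A and NZB B, over 7 arrays, the bright members gave 0.10, 0.81 and 0.84, and the other bright probe sets -0.03, 0.05 and 0.11. Quantile normalization gives each rank the same value on every array, so a shift shared by all of the brightest probe sets cannot show there. A shift of the members against other probe sets of like rank could.

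With trimmed mean scaling, the joint shift of the bright members lined up with title dates. The median deviation of the 23 was between -0.03 and 0.03 on the 5 arrays of batch 4, 1 of each strain name. It was 0.28 on LP A and 0.12 on MOLF A (batch 3), and -0.26 on ILn A and -0.21 on NZB B (batch 2). Each strain's arrays thus differed more from each other than the 5 strain names did within batch 4. With median centring the batch 4 values ran from 0.00 to 0.14, LP A stood at 0.32, MOLF A at -0.26, ILn A at -0.27 and NZB B at -0.58. Log2 ratios of 3′ to 5′ actin probe sets were 0.22 to 1.12 on the 9 arrays. On arrays A and B they were 0.22 and 0.28 in ILn, 1.12 and 0.94 in LP, and 0.78 and 0.6 in MOLF. In NZB they were 0.96 and 1.03, and FVBn B stood at 0.22. The part of these ratios in the shift was not tested.

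**Figure D3:**
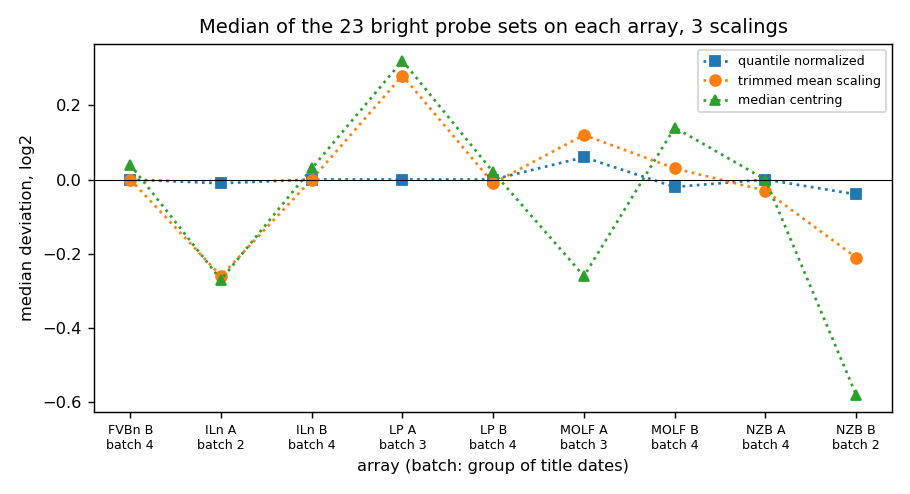
Median deviation of the 23 bright ribosomal protein probe sets on each array, in log2 units, under 3 scalings, with the title date batch under each array; dotted lines only guide the eye. The 5 batch 4 arrays lie between -0.03 and 0.03 with trimmed mean scaling, and LP A (0.28), ILn A (-0.26) and NZB B (-0.21) lie farthest from 0.

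Several dim probe sets were highest on MOLF A and NZB B. Rpl32, a 60S protein, was at the floor of 4.75 on 7 of the 9 arrays and measured 8.47 on MOLF A and 9.32 on NZB B. Rpl39l, a paralogue of Rpl39 best known from testis, measured 7.76 and 8.27 on those arrays and 4.75 to 5.43 on the other 7. The partner arrays MOLF B and NZB A were at the floor for both genes. Both MOLF A and NZB B lay above the other 7 arrays in 6 of 22 dim members (27.3%; all tested 19.7%): Rpl32, Rpl39l, Rps13, Rpl35a, Rps20 and Rpl7l1, a relative of Rpl7. Rpl32 and Rpl35a were above the floor on MOLF A and NZB B alone and so passed the filter only through these arrays. For Rpl35a the NZB B value was 4.82, close to the floor. The count is therefore partly set by the filter. MOLF A and NZB B both lay above the other 7 in 0 of 23 bright members. Below the other 7 they lay in 2 bright members, Rplp0 and Rpl8, and 2 dim ones, Rpl22 and a probe set of Rps4l (4 of 45, 8.89%; all tested 16.9%).

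Because mainly 1 array of a pair carried these values, they show neither a difference between strains nor its absence. Rpl32 gave the largest differences of any member in MOLF (1.10 ± 1.278, SE) and NZB (1.66 ± 1.278), with limma adjusted p-values of 0.918 and 0.698. Without MOLF A the MOLF difference was -0.76, and without NZB B the NZB difference was -0.62. In the MOLF pair 8 of 22 dim members differed over 2-fold (36.4%; all tested 20%), in the NZB pair 9 (40.9%; 21.8%), in the LP pair 3 (13.6%; 4.65%) and in the ILn pair 2 (9.09%; 2.24%). No bright member differed over 2-fold in any pair. Of 26 dim probe sets, 19 were above the floor on MOLF A and 16 on NZB B, against 11 to 14 on the other 7 arrays. Leaving both arrays out gave 1 called member in MOLF, a dim probe set of Rps4x (0.92, limma adjusted p = 0.0345). That value rests on MOLF B alone at 5.67 with the other 6 arrays at the floor.

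**Figure D4:**
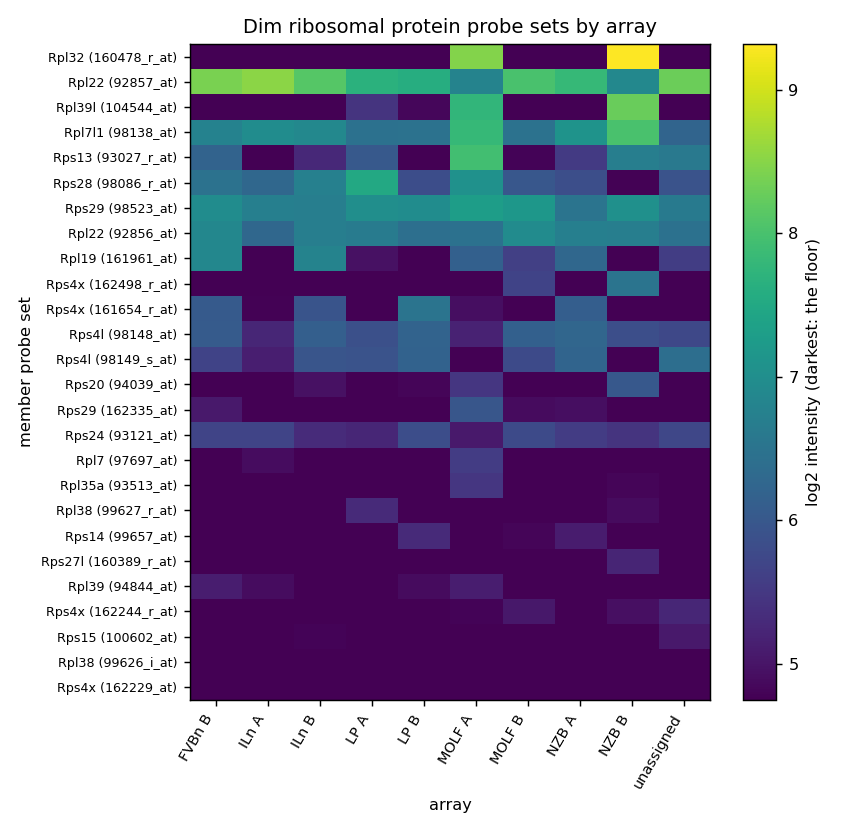
Log2 intensity of the 26 dim ribosomal protein probe sets on 10 arrays; the darkest colour is the floor of 4.75 and members are ordered by their highest value among the 9 strain arrays. Rpl32 and Rpl39l stand out in the MOLF A and NZB B columns, at 8.47 and 9.32 and at 7.76 and 8.27.

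Among the other paralogues and specialised members, Rpl22, a 60S protein with a role in early T cell development, was 8.53 and 8.12 in ILn, 8.40 in FVBn, 7.67 and 7.59 in LP, 6.79 and 8.01 in MOLF, and 7.81 and 6.89 in NZB. The ILn difference was 0.86 ± 0.379 (SE; limma adjusted p = 0.715). Its other probe set put ILn A lowest at 6.27 and MOLF B highest at 6.95. Rps4l, a relative of the X-linked Rps4x, measured 5.18 to 6.25 on 1 probe set and 4.75 to 6.23 on the other, lowest on MOLF A in both and on NZB B too in the latter. Rps27l, a p53-responsive relative of Rps27, was above the floor only on NZB B (5.22), and Rpl38, whose loss alters skeletal patterning in mice, had 1 probe set at the floor on all arrays and 1 of at most 5.30. For Rps27l and Rpl38 a level could hardly be measured here, and so a strain difference was not detectable.

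Agreement between the probe sets of a member gene was near that over all genes. Of 21 pairs of member probe sets within a gene, 16 had both tested, and their correlation over 9 arrays had a median of 0.15, with 4 above 0.5 (25.0%). Over all tested genes 2019 pairs had a median of 0.12 and 23.3% above 0.5. The highest values were 0.81 for a pair of dim Rps4x probe sets (above the floor on 2 and 3 arrays), 0.80 for Rps4l and 0.76 for the bright Rps28 probe sets. Rps28 is a small 40S protein. On its first bright probe set ILn A was highest at 12.98, but LP A at 12.86 and MOLF A at 12.80 were at least as high as ILn B at 12.80. On the other, ILn A at 12.52 and ILn B at 12.44 lay above the remaining 7 strain arrays, of which LP A was highest at 12.36. The lowest correlations were -0.51 and -0.47 within Rps4x and -0.39 between the bright and dim probe sets of Rps24, and the 2 bright Rpl10a probe sets gave -0.30. For Rps4x, the bright probe set measured 11.85 to 12.36, and 3 of the 4 dim ones were at or near the floor on most arrays and could hardly follow the gene. Among all 45 tested members, the correlation with the median of the others was highest for a probe set of Rps29 (0.85), the bright one of Rps4x (0.84) and that of Rps13 (0.78). This Rps29 probe set was above the floor on only 4 of 9 arrays, and both it and that of Rps13 were highest on MOLF A, at 5.97 and 7.93. The correlation was lowest for Rpl8 (-0.61), the dim probe set of Rps24 (-0.58) and a bright one of Rps28 (-0.54).

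Other genes of the pathway gave no called probe set in any comparison with limma, where 0.101% to 0.748% of all tested probe sets were called. The lists were elongation factors (7 genes tested), initiation factors (28), ribosome assembly and nucleolar factors (54), upstream regulators such as Myc and Mtor (17) and mitochondrial ribosomal proteins (60), with Fau as the 1 ribosomal protein under another symbol. They held 8, 35, 67, 22 and 71 tested probe sets in that order. At so low a share, lists of this size can lack a call, so this does not show the pathway unchanged. Their median differences in MOLF were 0.09, 0.06, 0.11, -0.04 and 0.00 in that order. In ILn they were -0.49, 0.10, -0.06, 0.06 and 0.00, in LP -0.02, 0.00, 0.05, -0.21 and 0.15, and in NZB 0.14, -0.10, -0.05, 0.02 and -0.08. Eef1a1, which brings aminoacyl-tRNA to the ribosome and whose message also carries a pyrimidine start, ran from 12.93 to 13.17 on the 9 arrays, and Tpt1, with such a start too, from 12.98 to 13.25. Less bright elongation factors ranged further, such as Eef1a2 from 6.31 on MOLF B to 8.37 on LP A, and Eif5a from 4.75 on FVBn B to 6.79 on NZB B. Myc measured 6.16 on NZB B and 6.51 to 7.02 on the other 8. The 2 probe sets of Mtor parted on NZB B and, less far, on MOLF A. On 1 these arrays were highest, at 8.62 and 8.23 against 6.55 to 7.43 on the other 7. On the other probe set they were lowest, at 5.37 and 7.09 against 7.71 to 8.13.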

How the data were processed

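The deposited tables of Affymetrix mg_u74av2 arrays hold linear intensity values of probe sets. How the authors summarised probes is not stated in the labels or headers. The mean intensity after trimming 2% at either end was 149.1 to 149.6 on 9 arrays and 498.4 on ILn A. The 9 strain arrays were quantile normalized on the log2 scale in R 4.3.3 with limma 3.58.1, and the array without a strain name was set to that distribution. Values under the 30th percentile (intensity 27.0) were raised to it. Of 12488 probe sets 66 were controls, and 9899 exceeded the floor on 2 or more of 9 arrays and were tested.

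Symbols came from the platform annotation (1 symbol for 10855 probe sets, several for 396, none for 1237), updated through Entrez identifiers, of which 10839 matched RefSeq. limma (lmFit, eBayes with an intensity trend) was fitted with a mean per strain name, 4 residual degrees of freedom and Benjamini-Hochberg adjustment over all tested probe sets at 0.05. There were 8 comparisons: each of ILn, LP, MOLF and NZB against the mean of the other 3, their mean against FVBn, ILn against NZB, LP against MOLF, and an F test. These comparisons share arrays. FVBn, with 1 array, takes its spread from the other groups. With so few arrays every value has limited precision. The fit was tested on simulated data.

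Described members were Rpl13a, members past a test, those with the largest differences (3 each way per strain against the others, 2 each way per other comparison), the extremes of agreement between members and between probe sets of a gene, and members with a particular role, beside those named as chosen after their values were seen. The members and lists were chosen with earlier results of these data known. Alternatives covered scaling, floor, filter, variance model, title date, array letter and left-out arrays.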

Additional observations from a re-analysis of the deposited data

How the results depend on the processing

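There were 19 alternatives. Members called in MOLF against the others fell from 1 to 0 with median centring, trimmed mean scaling, no filter on dim probe sets, no intensity trend, array weights, and the title date as a block, and were 0 to 1 over the arrays left out singly (1 only without FVBn). With the array letter as a replicate block the count was 0; Rpl13a kept its difference of 0.88, at a limma adjusted p of 0.0692. The letters did not pair arrays: A minus B differences correlated at 0.13 or less between strains, and at -0.71 for MOLF with NZB. Array weights called 1 member, Rpl13a, in ILn and 1 in the F test. Without MOLF A and NZB B together, 1 member (Rps4x) was called in LP against MOLF and 1 in the F test. Median agreement among the 45 tested members was 0.25, and 0.51 with median centring, 0.50 with trimmed mean scaling and 0.07 without MOLF A and NZB B. Among bright members it was 0.89 with median centring and 0.74 with trimmed mean scaling. These trimmed mean values, the bright agreement and the SD of bright members by scaling were added after seeing the data. Of 132 alternative values of the members' median differences, 31 moved beyond the spread between arrays, over a range of -0.20 to 0.21. The causes were not tested.

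Among 42 differences followed here only Rpl13a in MOLF had passed the test, so no other could lose the threshold. Of 768 alternative values of the 42, 728 kept their direction and side of the threshold. A further 16 lost the threshold, all among the 19 for Rpl13a in MOLF, 1 gained it and 23 changed sign. With median centring Rpl13a became 0.01 in LP, -0.12 in NZB and -0.01 against FVBn. With the title date as a block the Rps28 difference in LP became -0.16. Without MOLF A and NZB B, the differences became -0.52 for Rps13 and 0.09 for Rpl22 in MOLF, -0.12 for Rpl39l and -0.31 for Rps4x in NZB, and 0.37 for Rpl39l in LP against MOLF. Over the arrays left out singly, the range was -0.66 to 1.37 for Rpl19 in ILn, -0.29 to 1.40 for Rps28 and -0.45 to 1.29 for Rps4x in LP, and in MOLF -0.76 to 2.95 for Rpl32, -0.72 to 2.42 for Rps13, -0.98 to 0.25 for Rpl22 and -0.94 to 0.09 for Rps4l. In NZB it was -0.62 to 3.94 for Rpl32, -0.62 to 2.89 for Rpl39l, -0.15 to 1.61 for Rps4x, -0.04 to 0.23 for Rpl13a and -0.90 to 0.03 for Rpl22, and in LP against MOLF -0.08 to 1.66 for Rps4x and -2.63 to 0.37 for Rpl39l. None of the differences that changed sign had passed the test. The 4 untested members, at the floor in at least 8 arrays, could show no difference.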
